A study of Mus musculus with 2 samples.

Results

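The mammalian circadian clock is a transcriptional feedback loop that runs in nearly every cell, nasal epithelium and stroma included. The activators ARNTL (also called BMAL1) and CLOCK or NPAS2 bind E-boxes and switch on the Per and Cry genes, whose proteins then repress the activators. The same activators drive Nr1d1 and Nr1d2, which encode the REV-ERB receptors that repress Arntl through ROR elements, and Dbp, which encodes an output transcription factor acting through D-boxes. Glucocorticoids and local signals can reset this loop, and in most tissues Arntl and Npas2 peak at about the opposite time of day to Dbp and Nr1d1.

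The genes described here are 10 listed clock genes, Dbp, Nr1d1, Nr1d2, Per1, Per2, Per3, Ciart, Arntl, Npas2 and Cry1, taken by gene symbol from mouse nasal mucosa arrays with the brightest row per gene. Of the 10, 9 had a transcript cluster (the array's unit for 1 gene) with that symbol alone, out of 22180 genes so measured. Each of the 9 had 1 such cluster. The cluster for Per2 carries a further gene symbol and was not used here. The papain group was 1 Affymetrix Mouse Gene 2.0 ST array of C57BL/6 nasal mucosa at day 3 after instillation of papain, a plant cysteine protease. The PBS group was 1 array of the same strain, tissue and day after the vehicle, phosphate-buffered saline. The mice were 4 to 6 weeks old, and the design text says that 4 samples went into a single specimen. The hour of the day at which tissue was taken is not given in the sources used here. Since each group is 1 array, differences have no replicate to be checked against and carry neither a test nor a p-value. The clock genes were selected on their papain over PBS ratios, so those ratios are given as a description.

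Values are log2 signals, and a ratio is the papain value minus the PBS value on that scale. The array medians were 5.70 for papain and 5.64 for PBS over 41345 transcript clusters. A floor, the median signal of all named genes at 6.29, was reached in the brighter array by 11691 genes, and all 9 measured clock genes were among them. Their lowest signal in either array, 6.76, also exceeded 6.54, the 95 percentile of 28 genes of other tissues that served as a background set. Lhb, a gene of that set, exceeded 6.76 in both arrays, at 7.08 in papain and 7.83 in PBS, a ratio of -0.74. The median ratio of the 11691 genes was -0.10, so a ratio near that value is the one held by the bulk of genes. Genes with several clusters above the floor gave an SD of 0.28 for the ratio of 1 cluster, from 259 genes, which measures cluster error and not the spread between animals. Signals of different genes depend on their probes and are not set against each other here.

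Dbp and Nr1d1 had the lowest ratios of the 9 measured clock genes. Dbp signal was 1.77-fold and Nr1d1 signal 1.70-fold lower in the papain array. Npas2, Per1 and Arntl were lower by smaller amounts. Nr1d2, Per3 and Ciart lay at the level of the bulk of genes, and Cry1 was the only measured clock gene with a ratio above 0. None of the 9 reached a 2-fold difference in either direction.

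**Figure D1:**
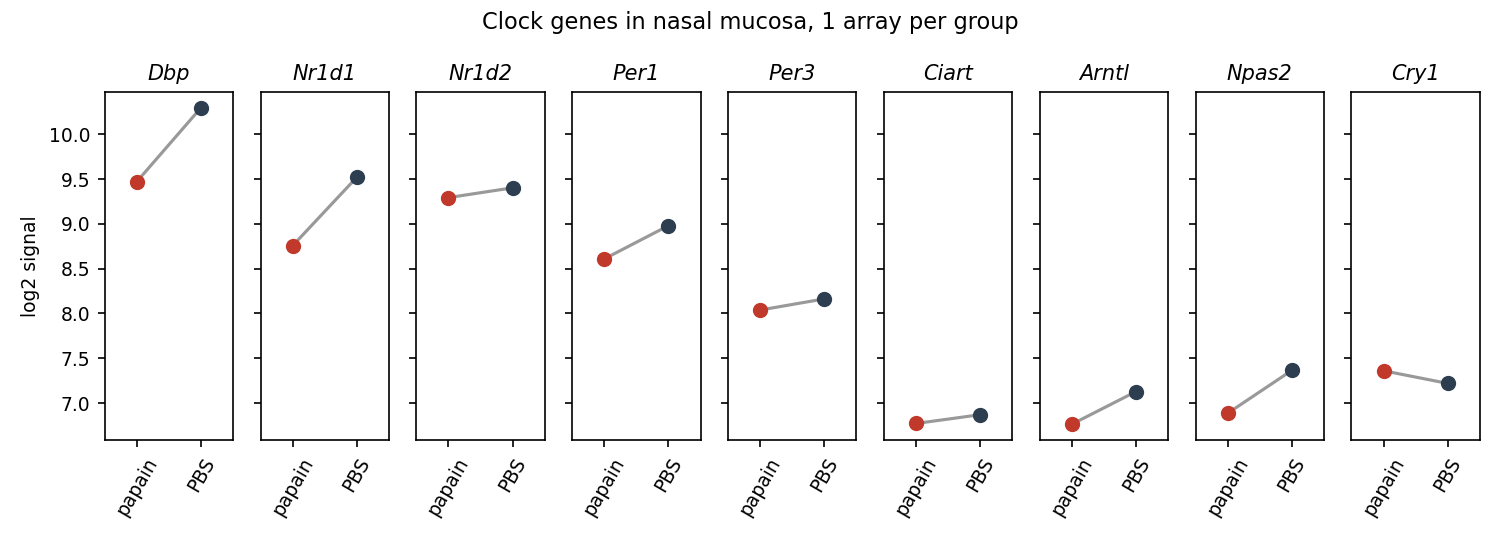
Log2 signal of the 9 measured clock genes in the papain array (red, left) and the PBS array (dark, right), 1 point per array and no error bars because each group was 1 array. The lines of Dbp and Nr1d1 are the steepest, and Cry1 alone is higher in the papain array. Heights of different genes are not comparable.

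Promoter windows of 5 of these genes are printed to show the clock elements that the letters near their start sites hold. Dbp and Nr1d1 had the largest differences, the Per1 and Ciart windows match the E-box, and the Arntl window has a match to the ROR element. Each runs from 250 bases before to 50 bases after a RefSeq start site in build GRCm38.p6, 5′ to 3′ on the gene's strand, with matches in capitals. The windows are chr7:45704997-45705296 on the plus strand for Dbp, chr11:98775328-98775627 on the minus strand for Nr1d1, chr11:69098699-69098998 on the plus strand for Per1, chr3:95882179-95882478 on the minus strand for Ciart and chr7:113207261-113207560 on the plus strand for Arntl.
Dbp: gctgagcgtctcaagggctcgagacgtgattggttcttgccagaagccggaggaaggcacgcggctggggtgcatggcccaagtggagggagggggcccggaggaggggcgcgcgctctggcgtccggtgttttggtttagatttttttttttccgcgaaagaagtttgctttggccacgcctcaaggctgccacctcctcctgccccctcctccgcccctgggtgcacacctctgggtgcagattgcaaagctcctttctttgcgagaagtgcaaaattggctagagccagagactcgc
Nr1d1: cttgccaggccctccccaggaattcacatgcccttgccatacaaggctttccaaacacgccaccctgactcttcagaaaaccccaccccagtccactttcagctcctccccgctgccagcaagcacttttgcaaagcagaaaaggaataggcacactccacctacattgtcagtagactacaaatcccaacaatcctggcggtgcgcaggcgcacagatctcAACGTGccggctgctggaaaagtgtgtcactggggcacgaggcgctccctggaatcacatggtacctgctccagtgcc
Per1: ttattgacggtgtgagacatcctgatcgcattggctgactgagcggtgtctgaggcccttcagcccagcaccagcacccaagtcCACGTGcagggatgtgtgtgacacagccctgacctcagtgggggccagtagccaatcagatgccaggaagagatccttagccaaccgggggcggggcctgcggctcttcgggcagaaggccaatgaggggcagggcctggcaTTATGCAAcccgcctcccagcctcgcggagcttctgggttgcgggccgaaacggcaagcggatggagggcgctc
Ciart: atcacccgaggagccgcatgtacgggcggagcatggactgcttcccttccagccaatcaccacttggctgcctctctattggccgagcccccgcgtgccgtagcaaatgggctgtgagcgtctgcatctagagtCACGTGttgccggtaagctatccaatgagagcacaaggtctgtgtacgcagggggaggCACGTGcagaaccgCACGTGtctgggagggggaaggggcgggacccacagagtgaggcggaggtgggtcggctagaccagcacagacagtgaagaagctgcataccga
Arntl: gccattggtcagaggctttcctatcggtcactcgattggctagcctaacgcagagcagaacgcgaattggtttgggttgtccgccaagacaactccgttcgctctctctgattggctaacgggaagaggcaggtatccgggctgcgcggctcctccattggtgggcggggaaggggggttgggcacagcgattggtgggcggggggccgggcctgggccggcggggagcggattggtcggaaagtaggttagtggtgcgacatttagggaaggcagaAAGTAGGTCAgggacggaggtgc

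Motifs were searched on both strands in the 11 windows that RefSeq gives for the 9 measured genes. The E-box CACGTG was found in the windows of 3 genes, Per1, Ciart and Cry1. It occurs in 7.15% of 32851 windows of all genes. Ciart held 3 copies, which begin 116, 58 and 44 bases before the start site. The variant CACGTT, or AACGTG on the other strand, was in the windows of Nr1d1 and Cry1 and in 4.68% of all windows. The D-box TTATGNAA was in the windows of Per1 and Per3, with 2 copies in Per3, and in 3.38% of all windows. The ROR element, the REV-ERB and ROR binding sequence, was in the printed Arntl window, where it begins at base 28 after the start site. It was in 1.60% of all windows. Per1 and Arntl have 2 windows each, and the unprinted window of each held no match. The cAMP response element TGACGTCA was in 0 of the 11 windows and in 1.79% of all windows. The windows of Dbp, Nr1d2 and Npas2 held none of these letters, which says nothing of elements elsewhere in the genes. No matches overlapped each other in the capitals shown. Genes with an E-box in the window had ratios of -0.37 for Per1, -0.10 for Ciart and 0.14 for Cry1. Each lay within the SD of 1 cluster, 0.28, of the median of genes above the floor.

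Dbp, a PAR bZIP transcription factor that passes clock time to metabolic and detoxification genes, read 9.47 after papain and 10.30 after PBS. Its ratio of -0.83 was below that of all but 108 of the 11691 genes above the floor. Among the 761 of them whose mean signal lay within 0.5 log2 of that of Dbp, 4 had a lower ratio, and the middle 90% of these ran from -0.51 to 0.34. Dbp thus lay outside the range of most genes of like signal without reaching 2-fold.

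Nr1d1, the REV-ERBα receptor, read 8.76 after papain and 9.52 after PBS. Its ratio was -0.76, and 6 of 1600 genes of like signal were lower. Its paralogue Nr1d2, the REV-ERBβ receptor, read 9.29 after papain and 9.40 after PBS. The Nr1d2 ratio of -0.11 was close to the median of all genes above the floor. The ratio of Nr1d1 was thus 0.66 lower than that of Nr1d2, and the SD for a difference between the ratios of 2 clusters was 0.40.

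The Per genes encode the repressors of the loop, and Per1 is also an early target of glucocorticoid and cAMP signals. Per1 read 8.61 after papain and 8.98 after PBS, a ratio of -0.37. Of 2068 genes of like signal, 245 had a lower ratio. Per3 read 8.04 after papain and 8.16 after PBS, a ratio of -0.12 that is near the median of genes above the floor. Ciart, also called Chrono, encodes a repressor that binds ARNTL, and it read 6.77 after papain and 6.87 after PBS. Its ratio of -0.10 equalled the median of genes above the floor to 2 decimals.

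Arntl, the activator without which the loop stops, read 6.76 after papain and 7.13 after PBS. Its ratio was -0.36, and 742 of 4192 genes of like signal were lower. Npas2, which can stand in for CLOCK as the partner of ARNTL, read 6.89 after papain and 7.36 after PBS. Its ratio was -0.48, and 394 of 4136 genes of like signal were lower. Arntl and Npas2 had ratios below 0, as did Dbp, Nr1d1 and 64.1% of all genes above the floor. Cry1, a repressor that carries ROR elements and comes late in the cycle, read 7.36 after papain and 7.22 after PBS, a ratio of 0.14. Of 4067 genes of like signal, 3412 had a lower ratio than Cry1.

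**Figure D2:**
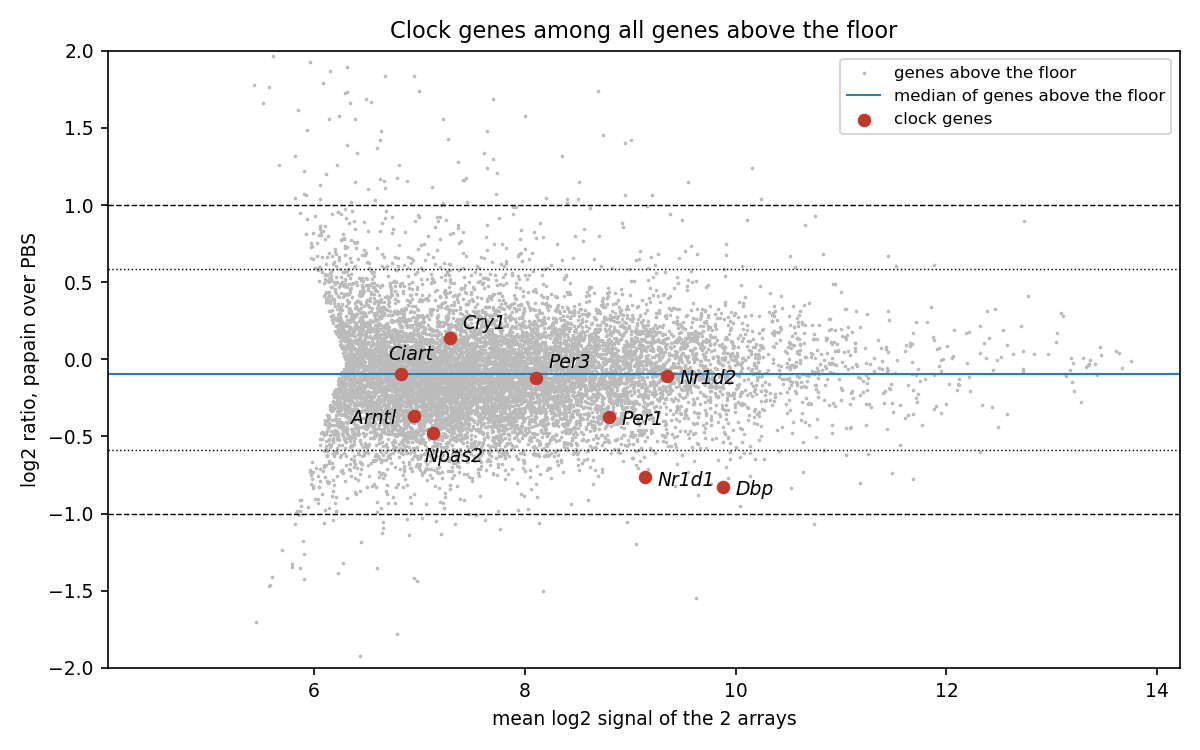
Log2 ratio of papain over PBS (vertical axis) against the mean log2 signal of the 2 arrays (horizontal axis) for genes above the floor (grey) and the 9 measured clock genes (red). Dashed lines mark 2-fold, dotted lines 1.5-fold and the blue line the median ratio of -0.10, and 110 genes lie outside the plotted range. Dbp and Nr1d1 lie below the lower 1.5-fold line, at signals where few genes do.

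Of the 9 genes, 0 were at least 2-fold lower, against 0.385% of all genes above the floor, and 0 were at least 2-fold higher, against 1.59%. At 1.5-fold, 2 were lower, Dbp and Nr1d1, against 4.34% of all genes, and 0 were higher, against 3.40%. Ratios were below 0 for 8 of the 9, against 64.1% of all genes, and the same 8 were below the median of -0.10. For Ciart that distance was under 0.01. The median ratio of the 9 was -0.36. Only Dbp, Nr1d1 and Npas2 departed from the median of genes above the floor by more than the SD of 1 cluster, and the other 6 lay within it. In the order of their ratios, from Dbp through Nr1d1, Npas2, Per1, Arntl, Per3, Nr1d2 and Ciart to Cry1, the widest step was 0.29, between Nr1d1 and Npas2. None of the 8 steps exceeded the SD of 0.40 for a difference between ratios. Steps between neighbours in a sorted order are small by construction and do not compare genes further apart. Dbp minus Cry1, the ends of the order, was -0.97. These shares describe genes that were chosen with the ratios known.

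Scaling the arrays in other ways moved these ratios by at most 0.10. The Dbp ratio ran from -0.83 to -0.78 and the Nr1d1 ratio from -0.76 to -0.70 over the deposited values, quantile normalization, a median ratio set to 0, and a loess fit of ratio against signal. Under these settings 8 ratios stayed below 0 and that of Cry1 above it. Nr1d2, Per3 and Ciart came as near to 0 as -0.05, -0.03 and -0.02 after loess, where the median of genes above the floor was -0.02.

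**Figure D3:**
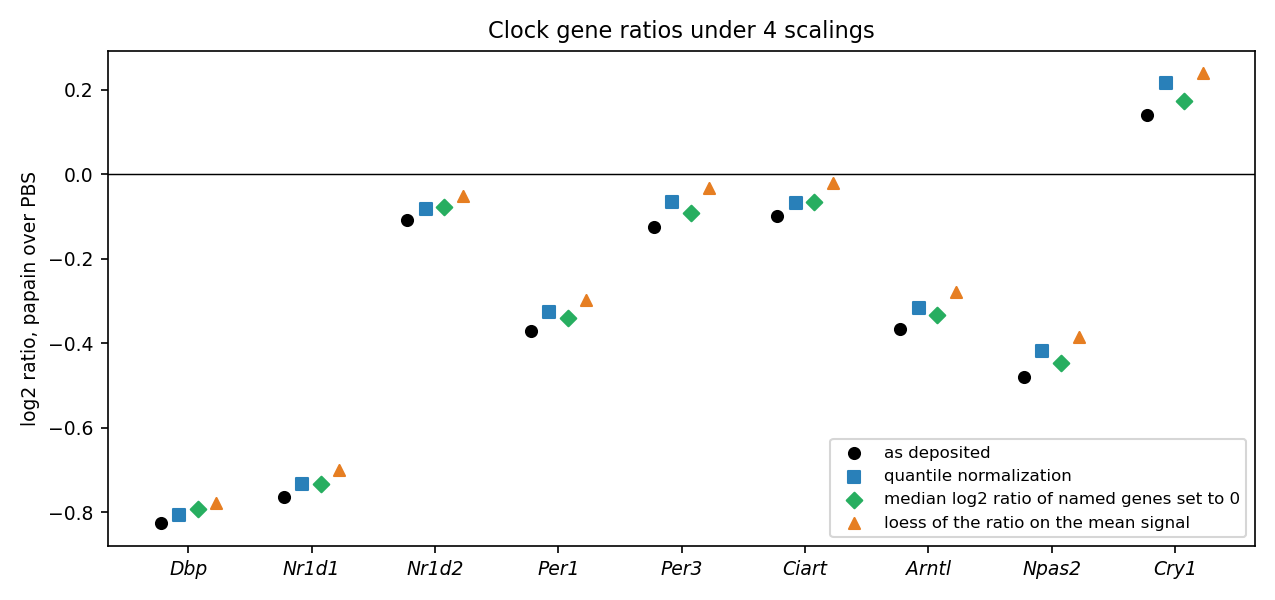
Log2 ratio of papain over PBS for each measured clock gene under the deposited scale (circles), quantile normalization (squares), a median ratio of named genes set to 0 (diamonds) and loess (triangles). Dbp and Nr1d1 are at or below -0.70 under all 4 scalings, and Cry1 is above 0 under all of them.

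Further clock genes were taken from lists of known targets and regulators. The E-box and D-box list held 4 measured genes besides those above, and all 4 had ratios below 0 with a median of -0.47, beside 64.1% below 0 and a median of -0.10 over all genes above the floor. Tef, a PAR bZIP factor related to Dbp, read 7.38 after papain and 7.98 after PBS, and its ratio of -0.60 was the only one of the 4 that was 1.5-fold lower, beside 4.34% of all genes above the floor. Bhlhe41, the repressor DEC2, had a ratio of -0.50 and Usp2, a rhythmic ubiquitin protease, one of -0.45. Hlf, another PAR bZIP factor, had a ratio of -0.10, at the level of the bulk of genes. The 6 measured clock genes of the same list also had ratios below 0, but they were selected on these ratios. The list that gave the other 4 was also chosen with earlier results of these data known. The median of all 10 was -0.41, which was -0.32 when all clusters of a gene were averaged. Each of the 6 clock genes has 1 cluster, so this move came from the other 4. Their ratios above are those of the brightest cluster, and which of them moved is not given here.

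Genes that work as activators or carry ROR elements had ratios on both sides of 0, in shares near those of all genes above the floor. Clock, the partner of ARNTL, read 10.05 after papain and 10.07 after PBS, a ratio of -0.02. Nfil3, a repressor at D-boxes and an antagonist of Dbp, had a ratio of 0.38, with 6.61 after papain and 6.23 after PBS. Its PBS signal was below 6.54, the 95 percentile of the background set, so the size of this ratio is uncertain. Of the 6 measured genes of this list, Arntl, Npas2 and Cry1 included, 4 had ratios below 0 and 2 above, with a median of -0.11. Over all genes above the floor 64.1% were below 0, with a median of -0.10. After quantile normalization, median centring or loess 3 were below 0 and 3 above, beside 52.9% to 59.4% of all genes above the floor below 0.

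The list of other clock regulators and rhythmic genes had 17 measured members, 11 with ratios below 0 and 6 above. Their median was -0.16. Of the 17, 13 reached the floor, all 11 with ratios below 0 among them, and the median of the 13 was -0.20. Over all genes above the floor 64.1% were below 0, with a median of -0.10. Rorb, Fbxl21, Timeless and Lonrf3, all with ratios above 0, did not reach the floor. Alas1, the rate-limiting enzyme of heme synthesis, had the largest departure above the floor at -0.62, reading 10.73 after papain and 11.36 after PBS. Heme is the ligand of the REV-ERB receptors. Noct, a rhythmic gene that encodes nocturnin, had -0.51 with a papain signal of 6.13, under 6.54. Csnk1e, a kinase of the PER proteins, had -0.36 and Coq10b had -0.30. Alas1 was the 1 gene of the 17 that was 1.5-fold lower, a share near the 4.34% of all genes above the floor.

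Genes induced by glucocorticoids, hormones that induce Per1, were listed beside the clock. All 12 were measured, 11 with ratios below 0 and 1, Cdkn1a, above, and their median was -0.19, beside 64.1% below 0 and a median of -0.10 over all genes above the floor. Klf9, a glucocorticoid-induced and rhythmic transcription factor, had a ratio of -0.58. Ddit4 had -0.50, the kinase gene Sgk1 -0.49 and Pdk4 -0.38. None of the 12 passed 1.5-fold, beside 4.34% lower and 3.40% higher among all genes above the floor, a difference too small to read in 12 genes. Under the other scalings 8 or 9 of the 12 were below 0, beside 52.9% to 59.4% of all genes above the floor. Immediate early genes, which share signals with Per1, had 7 ratios below 0 and 4 above of 11, with a median of -0.14. Of the 11, 9 reached the floor, all 7 with ratios below 0 among them, and the median of the 9 was -0.23. Over all genes above the floor 64.1% were below 0, with a median of -0.10. Fosb and Egr2, both with ratios above 0, did not reach the floor. Nr4a1 had -0.49, Junb -0.39, Arc -0.29 and Jun -0.25.

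**Figure D4:**
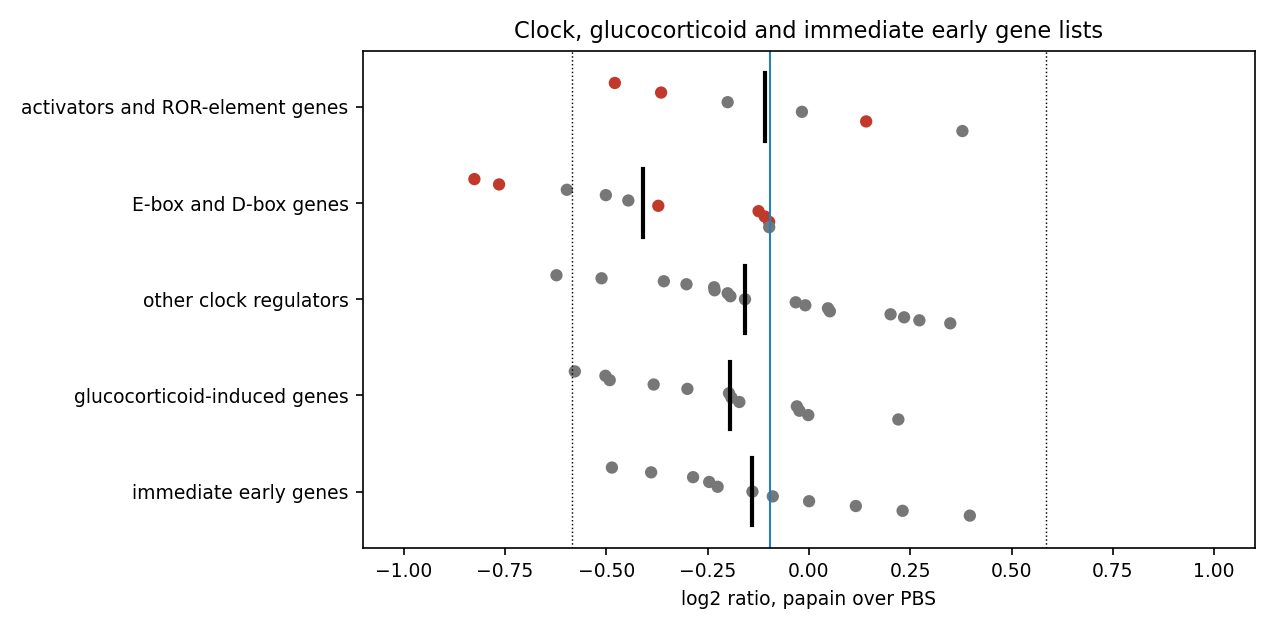
Log2 ratio of papain over PBS for each measured gene of 5 lists, with the 9 clock genes described first in red, other genes in grey, the list median as a black bar, the median of genes above the floor as a blue line and 1.5-fold as dotted lines. The 10 genes of the E-box and D-box list, 6 of them selected on these ratios, lie below 0. The other lists have genes on both sides, though 11 of the 12 of the glucocorticoid list lie below 0. Of all genes above the floor, 64.1% lie below 0.

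By ratio alone, the genes above the floor nearest to Dbp were 9830166K06Rik, Kctd10 and an immunoglobulin kappa variable segment, each at -0.83, and those nearest to Cry1 were Rbm8a, Timm8a1 and Krtap19-4, each at 0.14. With 2 arrays this likeness is one of a single ratio.

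Marker signals of several cell types also differed between the arrays, and in bulk tissue fewer cells of a type and less RNA per cell cannot be told apart. Secretory markers of nasal mucosa were bright in both arrays, Obp2a at 13.6 in each, while Scgb1a1 was below the background set's median in both and 0 of the 4 eosinophil and 0 of the 5 T cell markers reached the floor. All 7 vomeronasal neuron markers were higher in the papain array, with a summed linear signal of 3470 in papain and 2436 in PBS. Calr4, H2-M1 and H2-M10.5 were below the background median in the PBS array. All 8 ciliated cell markers were lower, with sums of 4726 in papain and 6561 in PBS, and a median ratio of -0.46. All 7 fibroblast markers were lower, with sums of 12280 in papain and 17644 in PBS, and a median ratio of -0.38. None of the ciliated cell or fibroblast markers was below the floor in both arrays. Of 9 olfactory sensory neuron markers, 7 were lower, with sums of 9898 in papain and 13169 in PBS, and a median ratio of -0.28. Among them S100a5, at -1.07, was lower than Dbp, while Rtp1 and Rtp2 were higher in papain, at 0.45 and 0.54. All 5 endothelial markers were lower, with sums of 626 in papain and 711 in PBS, and a median ratio of -0.18. Of these, Tek did not reach the floor. Beside these counts of lower markers, 64.1% of all genes above the floor had ratios below 0, with a median of -0.10. Median ratios of the other marker lists lay between -0.08 and 0.27. The part of cell makeup in the clock gene ratios was not tested.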

How the data were processed

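Total RNA of nasal mucosa was labelled with biotin and hybridised to 1 array per group, per the labels' protocols. What the authors deposited is 1 log2 signal for each transcript cluster and array, with the log2 scale inferred from the range of the numbers. Per the submitters' processing notes, Transcriptome Analysis Console 4.0 was used. How background, probe summaries and scaling were handled is not given in the sources used here, and a scaling that equalised the arrays hides any difference in total RNA.

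Of 41345 clusters, 23521 carried 1 symbol in the platform annotation, 1814 several and 16010 none, and only the first were named. The brightest cluster by mean signal stood for each gene. Counts used the floor of 6.29 and a 2-fold threshold. The self-test of counting and scaling ran on simulated arrays. Promoter sequences are from RefSeq, build GRCm38.p6. The clock genes, lists and motifs were chosen with earlier results of these data known. Named were all clock genes, up to 4 further genes above the floor with the largest ratio in each list, and the 3 genes nearest in ratio to the lowest and highest clock gene. Cdkn1a and the markers were named after their values were seen. Alternatives were 3 scalings, with loess at a span of 0.3, averaged clusters, thresholds of 1.5-fold and 3-fold, other floors, and leaving out chemosensory receptors. The number of arrays limits the precision. Python 3.11.15, numpy 2.4.6, pandas 2.3.3, statsmodels 0.14.6 and matplotlib 3.10.9 were used.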

Additional observations from a re-analysis of the deposited data

How the results depend on the processing

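No paired analysis was possible because each group was 1 array. Over 65 ratios and list medians recomputed under the scalings, averaged clusters or members above the floor, 0 changed sign and the largest move was 0.10. None of them was past 2-fold to begin with, so none could lose a call. Of 100 counts, 11 moved by more than 1.5 times. The counts depend on the threshold by construction. At 1.5-fold, 2 clock genes were lower in papain in place of 0, as were 3 genes of the E-box and D-box list and 1 of the other regulators. Over all genes above the floor, 186 were higher and 45 lower at 2-fold, 397 and 507 at 1.5-fold, and 6 lower at 3-fold. With no floor 405 were higher and 162 lower, with a floor at the 75 percentile 93 and 18, and 94 were higher without vomeronasal and olfactory receptors. Averaging clusters left the 9 clock genes as they were, since each has 1 cluster.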
